A study of Mus musculus with 11 samples.

Results

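Of 71400 intervals of accessible chromatin merged from the 9 ATAC-seq libraries, 1892 (2.65%) were open in CD4 single positive (CD4SP) thymocytes only. They were selected on peak calls, as the intervals with a peak in both CD4SP libraries and in no library of the other cell types, and an interval here is a stretch covered by peaks that share at least 1 bp. By the same rule 1401 intervals (1.96%) were open in NKT thymocytes only. The CD4SP-only intervals and the gene lists below were chosen by peak calls and with earlier results known, so the presence of peaks and their scores in CD4SP libraries are given as descriptions, without a test.

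The study set NKT thymocytes and bone marrow innate lymphoid cell precursors (ILCP), which express the transcription factor PLZF (gene Zbtb16), beside CD4SP thymocytes and common lymphoid progenitors (CLP), which do not. All libraries came from C57BL/6 mice, young animals a few weeks old by the study's methods: 2 from thymic CD4SP cells, 2 from thymic NKT cells, 3 from bone marrow CLP and 2 from bone marrow ILCP. By the study's methods the CLP gate was lineage-negative and IL-7Rα+ with intermediate cKit and Sca-1 and high Flt3, the ILCP gate was lineage-negative, IL-7Rα+, α4β7+ and eGFP+, and NKT cells were enriched with CD1d tetramers. A mouse line with eGFP and Cre at Zbtb16 is listed there, although the labels give C57BL/6 for every library. The CD4SP gate and the number of animals per library were not given in the sources used here.

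CD4SP thymocytes are the helper-lineage cells that leave the double positive stage after their T cell receptor has recognised MHC class II, and they go on to become naive CD4 T cells. NKT cells descend from the same double positive thymocytes but are selected by lipids on CD1d and acquire an effector programme under PLZF. In ATAC-seq, a transposase cuts and tags DNA that is free of nucleosomes, so a peak marks an accessible promoter, enhancer or insulator, without saying what it does.

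The sequences that the description below refers to are printed on the plus strand of mm10 (GRCm38.p6), 5′ to 3′. The first set holds the central 200 bp of the highest-scoring CD4SP-only interval at Zbtb7b and at Ets1, whose products direct T cell and helper T cell development. Capitals mark matches on either strand to the E-box letters CAGCTG, bound by E proteins, the Gata letters AGATAA and the Ets letters AGGAAGT. The Zbtb7b window, chr3:89382217-89382416, lies in an intron, and the Ets1 window, chr9:32726808-32727007, lies in an intron of Ets1.
Zbtb7b: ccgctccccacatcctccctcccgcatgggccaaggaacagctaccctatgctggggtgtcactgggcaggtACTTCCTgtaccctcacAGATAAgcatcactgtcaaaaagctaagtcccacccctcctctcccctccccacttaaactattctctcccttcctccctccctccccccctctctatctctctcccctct
Ets1: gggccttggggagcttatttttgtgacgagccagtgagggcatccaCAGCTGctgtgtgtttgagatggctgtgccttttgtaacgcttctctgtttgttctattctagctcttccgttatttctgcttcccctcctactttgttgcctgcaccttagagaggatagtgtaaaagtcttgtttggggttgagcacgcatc

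The second set shows the letters AAAGGTCA, to which the Nr4a orphan receptors bind as monomers and similar nuclear receptors can bind as well, in capitals with 20 bases on either side. It holds the 5 matches in intervals at genes of the pathway and marker lists below, at Cd5, Ifngr1, Nrp1 and Satb1, and was chosen after the motif shares were seen, because these letters set the CD4SP-only intervals apart most in proportion. The stretches are chr19:10752762-10752809 (Cd5), chr10:19491592-19491639 (Ifngr1), chr8:128290247-128290294 (Nrp1), chr17:51803266-51803313 (Satb1 intron) and chr17:52213165-52213212 (380 kb upstream of Satb1).
Cd5: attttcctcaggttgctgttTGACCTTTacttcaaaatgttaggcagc
Ifngr1: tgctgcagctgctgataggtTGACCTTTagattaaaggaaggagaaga
Nrp1: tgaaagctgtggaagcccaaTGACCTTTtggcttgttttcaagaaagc
Satb1 intron: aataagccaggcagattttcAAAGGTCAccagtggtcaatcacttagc
Satb1 upstream: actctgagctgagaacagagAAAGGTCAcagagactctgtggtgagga

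The third set, also chosen after the shares were seen, shows the letters GGGNNTTCC of the NF-kB (Rel) factors in capitals with 20 bases on either side. It holds 4 of the 7 matches in intervals at listed genes, leaving out another at Ets1 and those at Il6st and Satb1. The stretches are chr9:32728496-32728544 in an intron of Ets1, chr10:39488120-39488168 in an intron of Fyn, chr2:11229351-11229399 in an intron of Prkcq and chr15:61546809-61546857 between genes upstream of Myc.
Ets1 intron: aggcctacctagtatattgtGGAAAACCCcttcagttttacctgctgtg
Fyn: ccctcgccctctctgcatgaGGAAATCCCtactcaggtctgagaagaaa
Prkcq: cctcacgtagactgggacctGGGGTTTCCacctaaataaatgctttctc
Myc: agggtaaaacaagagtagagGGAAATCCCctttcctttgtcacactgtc

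CD4SP replicate 1 held 33648 peaks and replicate 2 held 37909, and the other libraries held between 19343 and 41535. The study's methods give a range of reads for its libraries together and no number for each library, so the absence of a peak means only that none was called, fewer cells with an open site cannot be told apart from less signal per cell, and scores were used as ranks within a library (percentile 100 for the highest score). The label of the cells was checked on 6 marker genes of CD4SP thymocytes, Cd4, Zbtb7b, Cd3e, Cd5, Cd28 and Ccr7. Within 20 kb of these genes there were 42 and 51 peaks in CD4SP libraries, 30 and 42 in NKT libraries and between 10 and 20 in bone marrow libraries. Markers of B cells (12 and 18 peaks in CD4SP, 9 to 26 elsewhere), of myeloid cells (8 and 17, against 7 to 21), of red cell precursors (12 and 14, against 9 to 20) and of thymic stroma (5 and 7, against 0 to 11) did not stand above the other libraries. Of the B cell, myeloid, red cell and stromal marker genes only Cebpb had a CD4SP-only interval by nearest start site. Within 20 kb of the genes, Cd79a had 1 as well as Cebpb. Marker genes of regulatory T cells, which are part of the CD4SP compartment, held 58 and 57 peaks in CD4SP libraries against 41 and 39 in NKT and 17 to 33 in bone marrow libraries, and their defining gene Foxp3 had 5 and 4, 3 and 2, and 2 in each bone marrow library. Marker genes of double positive thymocytes held 43 and 42 peaks in CD4SP, 28 and 37 in NKT and 18 to 44 in bone marrow libraries. Marker genes of CD8 T cells held 20 and 29, 17 and 32, and 9 to 21, with Cd8a itself at 1 and 2 peaks in CD4SP and none in NKT. The part of regulatory, double positive or CD8 cells in the results below was not tested.

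The CD4SP-only intervals were weak peaks. Their median score percentile was 24.6 in replicate 1 and 22.2 in replicate 2, where intervals open in both thymic cell types and no other (n = 5025) had medians of 45.2 and 50.1 and intervals open in all 9 libraries (n = 9464) had 81.1 and 84.5. Scores ran from 120.02 to 1477.98 in replicate 1 (median 188.37) and from 120.03 to 1312.78 in replicate 2 (median 183.56). In replicate 1, 496 of the 1892 (26.2%) scored under 150, and in replicate 2 503 (26.6%) did. Peaks above the 50th percentile in both libraries were found in 94 intervals (4.97%), against 36.4% of the intervals of both thymic types. The plot of score percentiles shows this order in both libraries.

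**Figure D1:**
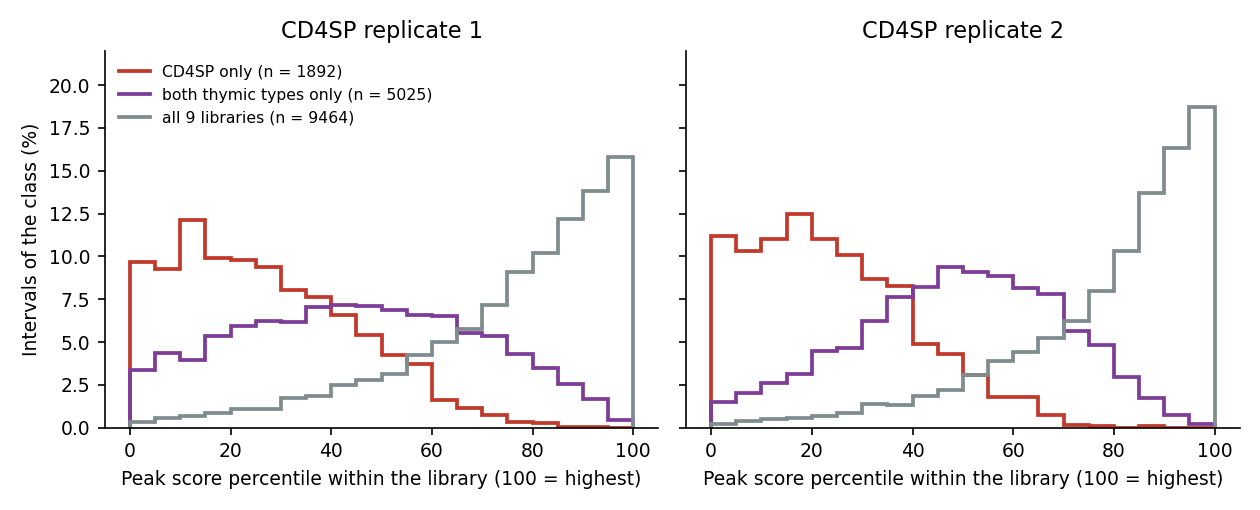
Share of intervals (y axis, %) by the percentile of their highest peak score within the library (x axis, bins of 5 points), for CD4SP replicate 1 (left) and replicate 2 (right). The CD4SP-only intervals (red, medians 24.6 and 22.2) lie below those open in both thymic types (purple, 45.2 and 50.1) and below those open in all 9 libraries (grey, 81.1 and 84.5).

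The 2 CD4SP libraries ranked the same intervals alike in part. Across the 1892 intervals the percentiles of the libraries correlated with Spearman's rho of 0.523 and Pearson's r of 0.598, which is a description across intervals that share their libraries. In the 5025 intervals of both thymic types rho was 0.757. The median difference between the replicates was 10.3 percentile points, and 366 intervals (19.3%) differed by more than 20 points. The 2 peaks covered the same bases over a median of 81.2% of the interval, and in 1867 intervals (98.7%) they shared at least 50% of it.

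Around the rule, 1215 intervals had a peak in CD4SP replicate 1 alone (median percentile 11.3) and 1986 in replicate 2 alone (9.99). Just outside it on the other side were 1796 intervals open in both CD4SP libraries and exactly 1 other library, with median percentiles of 24.7 and 31.0 in CD4SP. The extra peak was in NKT replicate 1 in 600 of these and in NKT replicate 2 in 1051, whereas each bone marrow library supplied between 2 and 71. In the NKT library that held it, the extra peak had a median percentile of 15.0 in replicate 1 and 20.7 in replicate 2. Most of the 1796 were thus kept out by a single NKT peak. The nearest peak of any other library lay a median of 5.16 kb away, with 7.35 kb for NKT, 9.53 kb for CLP and 14.5 kb for ILCP. In 284 intervals (15.0%) a peak of another library was within 1 kb, and in 259 (13.7%) none was within 20 kb.

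Nearly all CD4SP-only intervals lay away from promoters. Within 1 kb of the start site of a protein-coding gene were 65 (3.44%, Wilson 95% interval 2.7 to 4.36), a share close to that of the NKT-only intervals (3.85%, 2.97 to 5.0) and under that of intervals of both thymic types (7.86%), of all intervals (20.7%) and of intervals open in all 9 libraries (65.3%). Introns held 952 (50.3%), the space between genes 817 (43.2%) and exons 58 (3.07%). The median distance to a start site was 28.7 kb, against 17.0 kb over all intervals, 25.8 kb for NKT-only, 28.6 kb for CLP-only and 38.4 kb for ILCP-only intervals. Of the CD4SP-only intervals 19.8% were more than 100 kb from one, where 14.3% of all intervals were. Their median width was 865 bp (range 487 to 2502) and their median GC content 44.5%, compared with 45.3% in NKT-only intervals, 46.2% in intervals of both thymic types and 47.0% over all intervals.

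The highest-scoring CD4SP-only interval was chr2:14997291-14998593, in an intron of Nsun6 and nearest to the start site of Cacnb2, which encodes a calcium channel subunit, with scores of 1477.98 and 1266.06 (percentiles 92.3 and 85.2). It was followed by an interval 9.22 kb from the start site of Atp5j, over Jam2, with scores of 977.45 and 1312.78. An intron of Slit3, which encodes an axon guidance ligand, held the next (949.52 and 835.97), and intervals nearest to Kif5b (958.06 and 819.77) and Myo10 (865.86 and 833.08), which encode a kinesin and a myosin, came after it. The sixth of the 10 highest was at Satb1, with 1206.14 in replicate 1 and 539.37 in replicate 2, and the others were nearest to Lmo4, Osbpl3, Usp25 and Fanci. The 10 thus held 1 gene of the T lineage lists, and each scored above the 60th percentile in both libraries.

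Near a start site, the highest-scoring CD4SP-only interval was at Tnfrsf4, which encodes the costimulatory receptor OX40, with scores of 504.24 and 439.13 (percentiles 64.6 and 56.4) and its midpoint next to the start site. No peak of another library lay within 6.62 kb of it. The next was at Il6st, which encodes the gp130 chain of the IL-6 receptor, with 396.93 and 422.25. A weaker interval, with 173.6 and 191.75, lay at another start site of Il6st, so that this gene had a pair of CD4SP-only promoter intervals. The remaining 8 of the 10 were at Ngly1, Col15a1, Mbnl1, Myo10, Igsf23, Gcnt3, Chd2 and Pde10a, with scores between 233.6 and 465.27. At Tnfrsf9, which encodes the costimulatory receptor 4-1BB, the start site interval scored 182.39 and 197.31. At Tcf7, which encodes the Wnt-pathway factor TCF-1 of T cell commitment, the replicates differed widely, and the start site interval scored 134.36 in replicate 1 and 568.86 in replicate 2 (percentiles 6.81 and 64.5).

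The genes with the most CD4SP-only intervals were Tox, Satb1, Foxp1 and Sox4. Assigned to the nearest start site, they fell on 1363 of 21924 protein-coding genes (6.22%), and NKT-only intervals fell on 1184 (5.4%). The 2 sets of genes shared 221, which were 16.2% of the CD4SP genes and 18.7% of the NKT genes. A single CD4SP-only interval was found at 1044 genes and 9 at the 2 richest, Tox and Satb1. Tox encodes an HMG-box factor required for the CD4 lineage, Satb1 a chromatin organiser of thymocytes, Foxp1 a forkhead factor of T cell quiescence and Sox4 an HMG-box factor of early lymphocytes. These 4 genes held 34 of the CD4SP-only intervals among 189 intervals of all kinds, and none of them had an NKT-only interval. With an equal number of peaks per library the 4 genes held 2, 4, 1 and 2, and within 20 kb of the gene bodies they held 3, 7, 6 and 0.

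**Figure D2:**
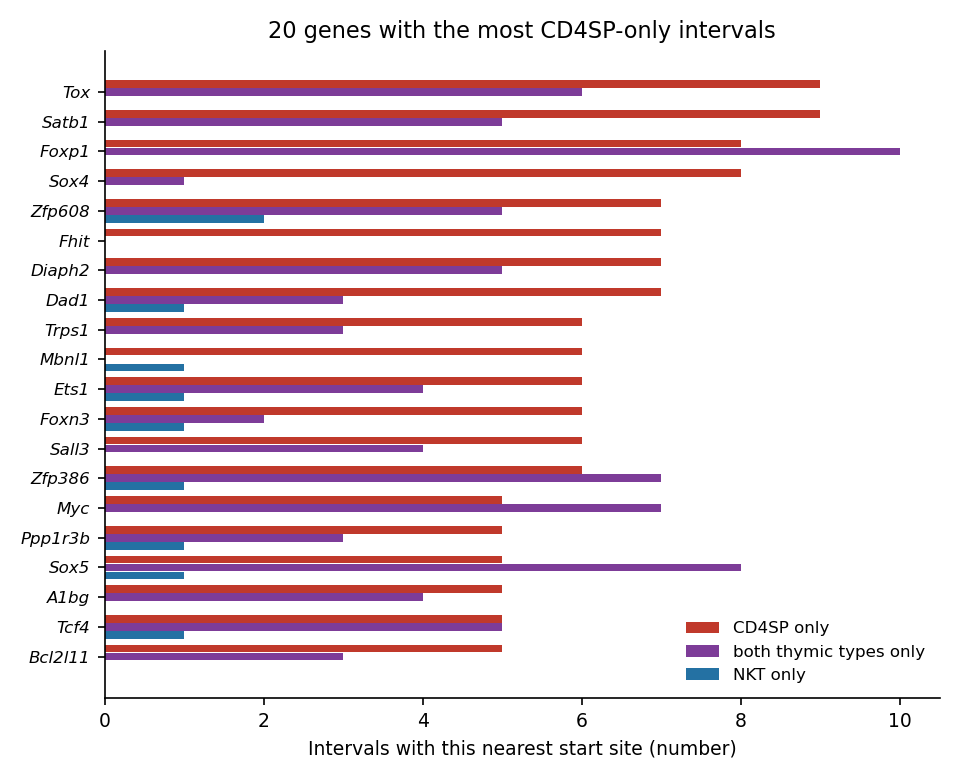
Number of intervals (x axis) with each gene's start site as the nearest, for the 20 genes with the most CD4SP-only intervals, by class (red CD4SP only, purple both thymic types only, blue NKT only). CD4SP-only intervals number 5 to 9 per gene by the choice of genes, and 9 of the 20 genes have an NKT-only interval, where 16.2% of all genes with a CD4SP-only interval have one.

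At Tox, 9 of 42 intervals were CD4SP-only, 3 in introns and 6 upstream of the gene, between 122 and 458 kb from the start site. The highest-ranked lay 185 kb upstream and scored 281.31 and 361.52 in the 2 libraries, and the lowest-ranked, 369 kb upstream, scored 164.16 and 137.76. None of the 9 was above the 50th percentile in both libraries. At Satb1, 9 of 43 were CD4SP-only, and they fell into 3 places. Leaving out 1 library moved these counts, to 17 at Satb1 without CD4SP replicate 1 and to 15 at Tox without CD4SP replicate 2. The first was the 3′ end of the gene, where 3 intervals stood within 6.03 kb and where the peak named above scored 1206.14 and 539.37. The second was a run of 4 over 21.7 kb near the start sites (mean percentiles 8.66 to 25.5). The third was a pair 345 and 380 kb upstream, of which the farther scored 315.46 and 530.79, had no peak of another library within 29.2 kb and held the Nr4a letters printed above.

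At Sox4, a gene of 4.79 kb, all 8 CD4SP-only intervals (of 46) were more than 100 kb from the start site, 5 of them downstream over the noncoding transcript 2610307P16Rik. The strongest of them scored 290.8 and 457.92. At Foxp1, 6 of 8 lay in introns of the gene and 1 in an intron of the overlapping gene model Gm20696 (58 intervals in all), with mean percentiles from 3.65 to 39.4. At Ets1, which encodes the founding Ets factor, 5 of 6 lay in introns within 43.5 kb and scored between 129.05 and 391.67 in replicate 1 and between 128.57 and 409.01 in replicate 2. The one whose sequence is printed above scored 391.67 and 329.53 and was the only one at Ets1 beyond the 40th percentile in both libraries.

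The joining of neighbours no more than 25 kb apart put 366 CD4SP-only intervals (19.3%) into 169 chains of at least 2, against 15.3% of NKT-only and 38.5% of intervals of both thymic types. Of ILCP-only intervals (n = 2611) 13.6% were in chains. These shares were not adjusted for the number of intervals in a class, 1892, 1401 and 5025 for the first named. The Ets1 chain of 5 over chr9:32700806-32744338 was 1 of the 2 longest. With an equal number of peaks per library, or with the higher-scoring 50% of peaks, only 1 CD4SP-only interval remained at Ets1. With no peak of another library within 1 kb, 3 remained. The other longest chain, also of 5, ran over 46.9 kb of Fanci, a DNA repair gene, and Polg, the mitochondrial polymerase gene, where 5 of all 6 intervals were CD4SP-only. Chains of 4 were found at Satb1 (21.7 kb), Foxp1 (44.4 kb) and Lrmp (55.1 kb). No NKT-only chain had more than 3, whereas CLP-only intervals, of which 18.7% were in chains, had 6 chains of at least 4 and a longest of 5.

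Intervals nearest to 2 genes lay in antigen receptor loci, which the gene assignment does not show because receptor segments are not listed as protein-coding genes. The 7 nearest to Dad1 (of 40 intervals there) were spread between 42.3 and 450 kb from its start site over the T cell receptor alpha and delta locus. They overlapped the segments Trdv2-1, Trdc and Traj7 in 1 case each, and the strongest scored 392.22 and 484.69. The 6 nearest to Zfp386 reached into the immunoglobulin heavy chain variable region, where 4 overlapped Ighv segments. The strongest of these 6 scored 263.46 in replicate 1 and 206.98 in replicate 2, and the weakest 124.84 and 120.03, the lowest score of any CD4SP-only interval in replicate 2. Reads of closely similar V segments cannot always be told apart, so the place of these 6 is uncertain.

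The other genes among the 20 with the most CD4SP-only intervals were mixed. Myc, which encodes a transcription factor of cell growth, had 5 of 41, at distances up to 898 kb, of which the strongest scored 502.37 and 605.37 and held an NF-kB match printed above. Bcl2l11, which encodes the pro-apoptotic protein Bim, had 5 of 26, the strongest 33.8 kb upstream in an intron of Acoxl with scores of 367.45 and 528.85. Fhit, a gene of 1610 kb, had 7 of 35, all intronic, the strongest with 578.49 and 465.36. Zfp608 and Diaph2 had 7 each, Trps1, Mbnl1, Foxn3 and Sall3 had 6 each, and Ppp1r3b, Sox5, A1bg and Tcf4 had 5 each. At Zfp608, Trps1, Fhit and Tcf4 the nearest peak of another library was a median of 22.1, 33.5, 29.8 and 28.8 kb away.

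Among 135 genes of 6 lists, 42 (31.1%) had at least 1 CD4SP-only interval, 110 intervals in all. Long and peak-rich loci collect more intervals of every class, so the lists are described by the share of their intervals that were CD4SP-only beside 2.65% over all intervals and 1.96% for NKT-only. Of the 22 T lineage transcription factors, 12 had one, and 54 of their 529 intervals (10.2%) were CD4SP-only where 10 (1.89%) were NKT-only. These counts moved with the CD4SP libraries, to 94 intervals without CD4SP replicate 1 and 82 without replicate 2. With an equal number of peaks per library the 54 fell to 22, with the higher-scoring 50% of peaks to 18, and within 20 kb of the gene bodies to 34. Intervals of both thymic types took 14.4% at these genes and between 13.1% and 16.1% at each of the 6 lists, against 7.04% over all intervals. Besides the genes above, these were Gata3 (4 intervals, or 7 without CD4SP replicate 2), Lef1 (4), Bach2 (4), Runx1 (4), Bcl11b (2), Zbtb7b (2), Foxo1 (1) and Tcf7 (1). Of the 54, 19 lay more than 100 kb from a start site, among them 3 of the 4 at Gata3 and both at Bcl11b. Tcf12, Tcf3, Myb, Ikzf1, Id3, Klf2, Tox2 and the Nfatc genes had none.

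Zbtb7b encodes ThPOK, the factor that fixes the CD4 fate, and both of its CD4SP-only intervals lay within 5 kb of a start site. The intronic one, whose sequence is printed above, scored 366.3 and 362.13, and the one by the start site 146.26 and 264.74. At Lef1, a partner of Tcf7, an intronic interval scored 591.56 and 637.97 (percentiles 69.8 and 67.8), the second highest mean of the list after Satb1. At Bach2, which restrains effector programmes, replicates differed widely at 1 of the 4 (126.99 and 432.66) and less at the strongest (291.52 and 388.59). The 4 at Runx1 scored between 135.77 and 244.93 in the 2 libraries, all under the 40th percentile.

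**Figure D3:**
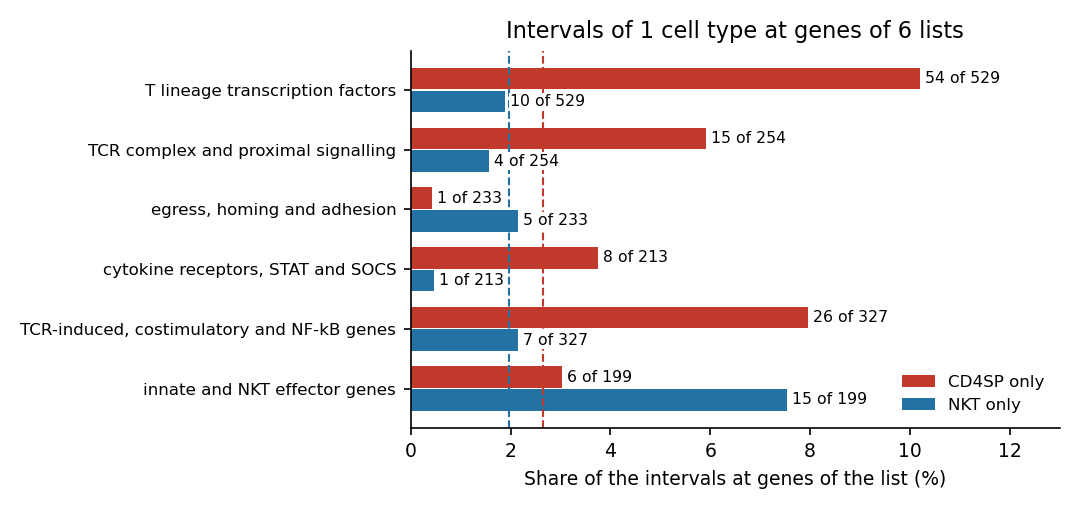
Share of the intervals at genes of each list (x axis, %) that were open in CD4SP only (red) or in NKT only (blue), with the number of intervals beside each bar and the share over all intervals as dashed lines (2.65% and 1.96%). CD4SP-only shares are 10.2% at T lineage factors and 7.95% at genes induced by the T cell receptor, and at innate effector genes the NKT-only share is the higher (7.54% against 3.02%).

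The T cell receptor complex and proximal signalling list had 15 CD4SP-only intervals among 254 (5.91%) at 10 of 26 genes, and 4 NKT-only ones (1.57%). The 15 became 32 without CD4SP replicate 1, 23 without CD4SP replicate 2 and 23 without NKT replicate 2, and 9 with the higher-scoring 50% of peaks. Cd5, a surface protein whose level follows the strength of receptor signals, had 3 of 15 intervals, all upstream, and the nearest of them scored 192.08 and 242.71. The costimulatory receptor gene Cd28 and the kinase genes Fyn and Prkcq had 2 each, and Cd2, Cd27, Lat, Lcp2 and Themis were among the genes with 1 each. Prkcq encodes PKC-theta, which links the receptor to NF-kB, and the stronger of its intronic intervals scored 416.23 and 405.49 with no peak of another cell type within 11.2 kb. The genes Cd4, Cd3e, Cd3d and Cd3g had none. The coreceptor gene Cd8a, a marker of other thymocytes, had 1 of its 2 intervals CD4SP-only, with scores of 322.55 and 370.9.

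At genes induced by the T cell receptor, costimulatory genes and NF-kB genes, 26 of 327 intervals (7.95%) were CD4SP-only, at 11 of 22 genes, against 7 (2.14%) NKT-only. There were 41 without CD4SP replicate 1, 14 with an equal number of peaks per library and 11 within 20 kb of the gene bodies. Ctla4, an inhibitory receptor induced by activation and present on regulatory T cells, had 4 of 11, with scores between 131.61 and 204.99 in replicate 1 and between 128.46 and 261.86 in replicate 2. Its neighbour Icos had none, and 3 NKT-only intervals. Tnfaip3, which encodes the NF-kB inhibitor A20, had 3 of 21, and single intervals lay 47.8 kb upstream of Egr2 (349.28 and 375.87) and 201 kb upstream of Nr4a3 (452.52 and 480.74), both immediate early genes of receptor signalling. Cd83 and Bcl2 had 2 each, and Pdcd1 1. By nearest start site, regulatory T cell markers had 8 CD4SP-only intervals of 86 (9.3%), 4 at Ctla4, 3 at Nrp1 and 1 at Ikzf2. All 8 were under the 50th percentile in both libraries. Within 20 kb of the genes, 1 CD4SP-only interval each was found at Foxp3, Tnfrsf18, Ikzf2 and Nrp1, and 4 at Ctla4. The part of regulatory T cells, whose marker peaks are given above, was not tested.

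Cytokine receptor, STAT and SOCS genes had 8 of 213 (3.76%), at Ifngr1 (3), Il6st (2), Socs1 (2) and Il7r (1). That count was 19 without CD4SP replicate 1, 17 without CD4SP replicate 2, 13 without NKT replicate 1 and 12 with an equal number of peaks per library. Genes of egress, homing and adhesion had 1 of 233 (0.429%), upstream of Itga4, which encodes an integrin chain, and S1pr1 and Ccr7 had none. This low count was not stable, since it was 10 without CD4SP replicate 1, 9 without CD4SP replicate 2, 5 without NKT replicate 1, 8 without NKT replicate 2, and 4 with an equal number of peaks per library. Innate and NKT effector genes had 6 of 199 (3.02%) at Id2, Klrb1c, Ifng and Cxcr6, and 15 NKT-only (7.54%). Without CD4SP replicate 1 or 2 the CD4SP-only count was 11 or 10, and without NKT replicate 2 it was 9. The CD4SP-only interval 203 kb downstream of Ifng, the interferon gamma gene, scored 251.75 and 449.08. Within 20 kb of Zbtb16 no CD4SP-only interval was found.

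The letters of 20 transcription factor motifs were searched on both strands of the central 200 bp, and the shares below are descriptions, in which a match is not a binding site. The Nr4a letters AAAGGTCA were in 63 CD4SP-only intervals (3.33%, Wilson 95% interval 2.61 to 4.24). This share was 0.928% (0.543 to 1.58) in NKT-only intervals, 1.23% (0.964 to 1.58) in those of both thymic types and 1.03% (0.962 to 1.11) over all intervals. The 63 lay at 61 genes, none within 1 kb of a start site. The NF-kB letters GGGNNTTCC were in 100 CD4SP-only intervals (5.29%, 4.36 to 6.39), against 1.93% (1.33 to 2.79) of NKT-only intervals, 3.42% of those of both thymic types and 3.33% over all. The share was 4.02% (3.64 to 4.43) in intervals open in all 9 libraries and 4.0% (3.33 to 4.8) in CLP-only intervals, and these 95% intervals overlapped that of CD4SP-only intervals. Only 3 intervals held both. After weighting to the GC content of the CD4SP-only intervals, the shares over all intervals were 1.19% for Nr4a and 2.81% for NF-kB. The differences depended on the window. In the central 400 bp Nr4a was in 4.97% against 2.02% over all and NF-kB in 7.77% against 6.32%. In the whole interval, where CD4SP-only intervals are the narrower ones, Nr4a was in 7.56% against 5.84%, and for NF-kB the order turned (12.5% against 15.9%).

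Both motifs were more frequent in higher-scoring CD4SP-only intervals. When the 1892 were divided by mean percentile into 3 parts of 630 or 631, the Nr4a share was 1.75% in the lowest, 3.49% in the middle and 4.75% in the highest, and the NF-kB share 3.65%, 5.71% and 6.5%. The Runx share over the same parts was 19.8%, 20.4% and 20.4%. Scores are the values by which the intervals were called, so these parts are a description too.

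**Figure D4:**
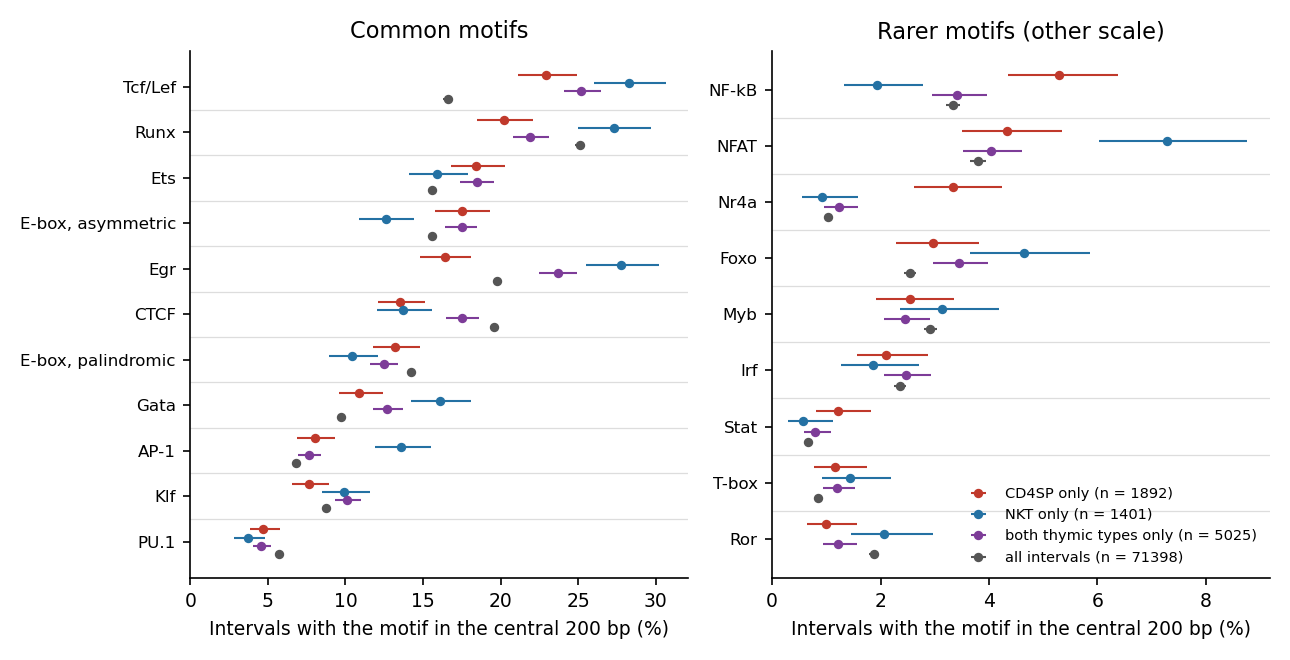
Share of intervals with at least 1 match to each motif in the central 200 bp (x axis, %, with Wilson 95% intervals), for common motifs (left) and rarer ones (right, on another scale), in CD4SP-only (red), NKT-only (blue), both thymic types (purple) and all intervals (grey). Nr4a (3.33% against 1.03% over all) and NF-kB (5.29% against 3.33%) stand above the other plotted classes in red, and Runx (20.2% against 25.1%) and Egr (16.4% against 19.8%, or 16.1% with GC weights) lie below all intervals without weights.

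The letters TGTGGT of Runx factors were in 383 CD4SP-only intervals (20.2%, 18.5 to 22.1). They were in 27.3% of NKT-only, 21.9% of both thymic types, 25.1% of all and 57.5% of ILCP-only intervals. With all intervals weighted to the same GC content the share over all was 27.8%, and the difference was larger than without the weights. With the higher-scoring 50% of peaks it nearly vanished, at -0.595 percentage points (22.6% of CD4SP-only intervals). Letters for Egr factors, GTGGGNG, gave the widest gap to NKT cells (16.4%, 14.8 to 18.1, against 27.8%, 25.5 to 30.2), and both thymic types had 23.7%. Over all intervals Egr was in 19.8%, and in 16.1% after weighting to the GC content of the CD4SP-only intervals, so its lower share did not hold against all intervals. The AP-1 letters TGANTCA were in 8.03% against 13.6%, those of NFAT, TGGAAAA, in 4.33% against 7.28%, and the Gata letters AGATAA in 10.9% against 16.1%. Over all intervals these shares were 6.82% for AP-1, 3.8% for NFAT and 9.72% for Gata, below the CD4SP-only share in each case. With GC weights they were 7.52%, 4.5% and 12.1%, so the order turned for NFAT and Gata and held for AP-1 only. For these 4 motifs the 95% intervals of the CD4SP-only and NKT-only shares did not overlap.

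The Tcf/Lef letters CTTTGA were in 22.9% (21.1 to 24.9) of CD4SP-only intervals, above all intervals (16.6%) and under NKT-only (28.3%). The E-box CAGGTG was in 17.5% (15.8 to 19.3), as in both thymic types (17.5%), and in 12.6% (10.9 to 14.4) of NKT-only intervals, and the E-box CAGCTG in 13.2% of CD4SP-only and 10.4% of NKT-only intervals. The Ets letters AGGAAGT were in 18.4% of CD4SP-only, 18.5% of both thymic types' and 15.9% of NKT-only intervals, and the 95% intervals of the CD4SP-only and NKT-only shares overlapped. Over all intervals CAGGTG was in 15.6%, CAGCTG in 14.2% and the Ets letters in 15.6%, so for CAGCTG the CD4SP-only share was the lower one. With GC weights the shares over all intervals were 14.0%, 12.6% and 17.0%, so for CAGCTG the order turned. The remaining letters were GTAAACA (Foxo, 2.96% of CD4SP-only intervals), CCACNCCC (Klf, 7.66%), GAAANTGAA (Irf, 2.11%), TTCCNGGAA (Stat, 1.22%), TAGGTCA (Ror, 1.0%), AGGTGTGA (T-box, 1.16%), AACTGCC (Myb, 2.54%), AGGNGGC (CTCF, 13.5%) and GAGGAAGT (PU.1, which contains the Ets letters, 4.7%). Over all intervals these were in 2.54%, 8.75%, 2.36%, 0.667%, 1.88%, 0.843%, 2.92%, 19.6% and 5.68%. For Klf the order turned with GC weights, at 6.59% over all intervals.

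Of 6 motifs named for early T lineage factors (Runx, Ets, Tcf/Lef, Gata and the 2 E-boxes), none was in 587 CD4SP-only intervals (31.0%), exactly 1 in 773 (40.9%) and 2 in 430 (22.7%). Over all intervals 35.3% held none. The Zbtb7b window printed above held 2 of these motifs.

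The last comparison asked whether chromatin that was open in every library was also more accessible in CD4SP cells where it lay near CD4SP-only intervals. The rule did not use the scores of these intervals, but its calls in the CD4SP libraries chose the places that were compared. Of the 9464 intervals open in all 9 libraries, 646 lay within 20 kb of a CD4SP-only interval. Their median percentile minus that of all 9464 was 4.11 in CD4SP replicate 1 and 0.661 in replicate 2, and 1.12 and -1.7 in the NKT libraries. It was -1.58, -1.32 and -0.866 in the CLP libraries and -4.46 and -3.36 in the ILCP libraries. CD4SP replicate 1 was thus the highest of the 9 libraries, and NKT replicate 1 lay above CD4SP replicate 2. Between libraries of the same replicate number, CD4SP was above NKT in both cases.

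**Figure D5:**
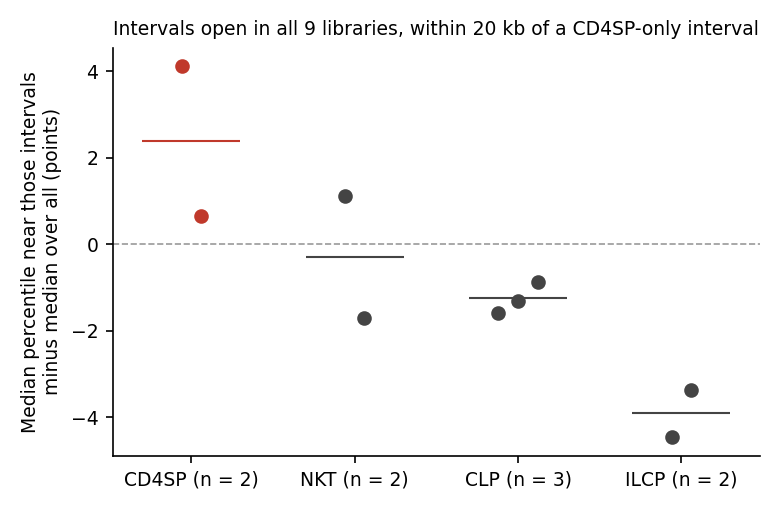
Median score percentile of the 646 intervals open in all 9 libraries and within 20 kb of a CD4SP-only interval, minus the median of all 9464 (y axis, percentile points), for each library (points) with the mean of each cell type (lines). The CD4SP libraries are at 4.11 and 0.661, and the ILCP libraries are lowest, at -4.46 and -3.36.

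The mean was 2.38 ± 2.44 points (SD, n = 2) in CD4SP and -1.74 ± 1.79 (SD, n = 7) in the other libraries, a difference of 4.12 points. The exact permutation test over libraries, two-sided, gave p = 0.0556 where the smallest p that its 36 arrangements allow is 0.0278, so the difference did not pass 0.05. The intervals compared were chosen by CD4SP calls and were not chosen anew for each arrangement. The libraries are thus not exchangeable, so neither this p-value nor those below can decide the question. With start sites and the 1 kb around them left out, the difference was 7.83 points and the exact p was 0.0278, the smallest possible. Against the 2 NKT libraries alone it was 2.68 points, with an exact permutation p of 0.667 where 2 against 2 libraries cannot go below 0.167. Without NKT replicate 1 the difference was 4.38 and without NKT replicate 2 it was 5.32, each with an exact permutation p of 0.0357, the smallest that these 8 libraries allow. Leaving out a CLP or ILCP library instead gave differences of 3.63 to 4.23, with an exact p of 0.107 without CLP replicate 2 or ILCP replicate 2 and of 0.0714 without any of the other 3. Without CD4SP replicate 1 or 2, where p cannot go below 0.125, the exact p was 0.25 and 0.125. With an equal number of peaks per library the difference was 3.88 and the exact p 0.0833. The study calls its ATAC-seq replicates biological and does not say which animals they came from, so a p-value measures the spread between these libraries. The other 7 come from NKT cells, CLP and ILCP. Their SD and the p-values thus mix differences between cell types with those between replicates.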

How the data were processed

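The 9 ATAC-seq libraries, a measure of open chromatin, were grouped by the sample labels. Reads were aligned by the authors to mm10 with bowtie, and peaks were called with MACS in each library. The submitters' processing notes also name Picard and HOMER. The MACS version and settings, the removal of duplicates and the shift of read ends were not given in the sources used here. The deposited score of each peak is the peak caller's, and the sources used here give a range of reads for the libraries together but none for each, so scores were ranked within a library and not compared between libraries. A Runx1 immunoprecipitation library and its input were not analysed here.

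Peaks of all libraries sharing at least 1 bp were merged (numpy 2.4.6, pandas 2.3.3 and scipy 1.17.1 under Python 3.11.15). Intervals were assigned to the protein-coding gene with the nearest start site in GENCODE M21, counted from the interval's midpoint, and placed at a start site when any base was within 1 kb of one. Sequence came from the RefSeq copy of GRCm38.p6, and motifs were searched in the central 200 bp (2 intervals of the mitochondrial chromosome had none). Wilson 95% intervals (statsmodels 0.14.6) cover counting error only, and neighbouring intervals are not independent. No enrichment test was run. The permutation test was exact over libraries. Class assignment, motif search and permutation test were checked on simulated data. Figures were drawn with matplotlib 3.10.9.

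The members, lists and motifs were chosen with earlier results of these data known. Named were all listed genes with a CD4SP-only interval, the 20 genes with the most, the 10 highest-scoring intervals, the 10 highest within 1 kb of a start site, and the 5 longest chains of intervals no more than 25 kb apart, with ties by score or length. Genes of a list without such an interval, marker genes, and the Nr4a and NF-kB stretches were named after their values were seen. Of the 9 windows chosen for printing, 2 with a match to a marked motif are shown. Of the others, 1 lies over the end of Satb1 and 5 hold no match. A sequence and a gene that meet these rules are not reported here.

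Tried as alternatives were the top 19343 peaks of each library (all that the smallest holds), the higher-scoring 50% of peaks, peaks covering at least 50% of an interval, peak midpoints between the ends of the CD4SP peaks, merging over gaps of up to 500 bp, no peak of another library within 1 kb, intervals open in at least 1 CD4SP library, each library left out in turn, other distances, windows, Runx letters and GC weights, and blocks by replicate number.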

Additional observations from a re-analysis of the deposited data

How the results depend on the processing

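The number of CD4SP-only intervals depended on the CD4SP and NKT libraries and on the score limit. It was 969 with an equal number of peaks per library, 881 with the higher-scoring 50% of peaks and 5093 when 1 CD4SP library sufficed, and with 1 library left out it ran from 1894 to 3894, with 3894 without CD4SP replicate 1, 3135 without CD4SP replicate 2 and 2954 without NKT replicate 2. The share within 1 kb of a start site was 6.3%, 5.11% and 5.32% under those first 3 settings, 2.55% with no peak of another library within 1 kb, 8.19% within 2.5 kb, and 3.19% to 6.03% with 1 library left out (6.03% without CD4SP replicate 1, 5.96% without NKT replicate 2). Listed genes with an interval numbered 81 when 1 CD4SP library sufficed and 42 to 72 with a library left out (72 without CD4SP replicate 1). At genes of T lineage factors the intervals numbered 22 and 18 with equal numbers and with the higher-scoring 50% of peaks, and at Tox they numbered 2 and 1.

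The Runx share of CD4SP-only intervals was 22.6% with the higher-scoring 50% of peaks, 53.9% in the whole interval, 32.3% in the central 400 bp, 22.2% with TGCGGT counted as well, and 18.9% to 20.6% with 1 library left out. The difference from all intervals (-4.86 percentage points) kept its sign under all alternatives run. It was -0.595 points with the higher-scoring 50% of peaks, -9.97 in the whole interval, -8.7 away from start sites, -7.6 with GC weights and -6.31 to -4.32 with 1 library left out. The Nr4a share was 2.48% with equal numbers of peaks and 2.5% with the higher-scoring 50%, against 0.974% and 0.929% over all intervals, and 2.41% to 3.35% with 1 library left out. The NF-kB share was 5.57% and 5.9% under the same settings, against 3.55% and 3.58%, and 4.27% to 5.34% with 1 library left out, but its order turned in the whole interval, as given above.

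The difference of 4.12 points in intervals open in all 9 libraries ran from 3.63 to 5.32 with 1 library left out. It was 2.6 points with the higher-scoring 50% of peaks (exact permutation p of 0.0556). The exact permutation p was under 0.05 when either NKT library was left out and away from start sites (7.83 points, as given above). As said above, these p-values cannot decide the question. The difference kept its sign throughout. Replicate numbers were not taken to pair the libraries, since no label ties them and deviations from group means correlated by -0.0604 to 0.457 over 12 same-numbered pairs. The 6 pairs over 0.1 were those among CD4SP, NKT and CLP libraries (0.457 between CD4SP and NKT), and the 6 with ILCP libraries were below 0. Among CD4SP, NKT and ILCP libraries the same-numbered pairs repeat each other's value by construction, so the 12 pairs are not 12 separate values. With the replicate number as a block the difference was 4.12, with an exact permutation p of 0.0625, the smallest possible. The depth of each library is unknown, and a call in 1 cell type and not in another may be a matter of the score limit.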
